A study of Mus musculus with 2 samples.

Results

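The Mir379 to Mir410 cluster is a dense array of microRNA (miRNA) genes in the imprinted Dlk1-Dio3 domain of mouse chromosome 12. Its members were taken by position: all genes with a row in the count tables that lie on the plus strand between the start of Mir379 and the end of Mir3072, the last gene of the array, 38.9 kb in all (12:109709060 to 109747960, GRCm38). The rule gave 34 of the 1973 miRNA genes counted. Mir3072 lies past Mir410, so the array described here runs slightly beyond the gene it is named for. Levels were measured by small RNA sequencing of whole limbs from B6NCrl mouse embryos at 15.5 days, with male and female embryos pooled and no treatment or altered genotype named in the labels. There was 1 group of 2 biological replicates, a pool of 78 embryos (replicate 1) and a pool of 62 embryos (replicate 2), so the data describe levels in the limb and the difference between the 2 pools.

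As background, miRNAs are cut from hairpins in longer transcripts, and bases 2 to 8 of the mature strand, the seed, pair with target messenger RNAs and lower their output. Genes of this array are expressed from the maternal chromosome, together with the long noncoding RNAs Meg3, Rian and Mirg, while the paternal chromosome expresses Dlk1, Rtl1 and Dio3. The array is found in placental mammals, is known mainly from brain and from embryonic tissues including muscle, where MEF2 factors activate it, and mice without it adapt poorly to the metabolic demands of birth.

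The mature sequences show which members are close to each other. They are from RefSeq (GRCm38.p6), which held at least 1 mature entry for 33 of the 34 members, with Gm27379 unmatched. The entries used lacked the 3p strand of Mir376c, Mir487b and Mir539 and the 5p strand of Mir485, and that of Mir453 named no arm. Below are the arms with an entry for the 7 members with the highest mean level, written 5′ to 3′ with the seed in capitals. Mir487b is therefore shown by its 5p strand only. The tables count reads per hairpin, so which arm gave the reads is not known from them.
miR-379-5p: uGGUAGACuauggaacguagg
miR-379-3p: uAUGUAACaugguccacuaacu
miR-411-5p: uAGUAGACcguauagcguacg
miR-411-3p: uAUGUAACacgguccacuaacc
miR-381-5p: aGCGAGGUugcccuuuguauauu
miR-381-3p: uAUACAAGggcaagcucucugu
miR-487b-5p: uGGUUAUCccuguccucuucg
miR-382-5p: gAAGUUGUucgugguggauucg
miR-382-3p: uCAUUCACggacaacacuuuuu
miR-541-5p: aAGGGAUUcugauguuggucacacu
miR-541-3p: uGGCGAACacagaauccauacu
miR-369-5p: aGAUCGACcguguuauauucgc
miR-369-3p: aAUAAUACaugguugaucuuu

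Mir379 and Mir411, the neighbours at the start of the array, are relatives. Of the members shown above, only they shared a seed on a strand with an entry. Their 3p strands have the same seed and match at 20 of 22 bases, with U10C and U22C from miR-379 to miR-411, counted from 1 at the 5′ end. The 5p strands match at 14 of 21 bases, and G2A puts them in different seed groups. Among the strands with an entry, 9 members fell into 5 groups with an identical seed on some arm. A group that needs a strand without an entry is not counted. Beside the pair above, the groups joined Mir379 to Mir1193, Mir758 to Mir1197, Mir410 to Mir494, and Mir453 to Mir496a. Further mature strands are shown here because they share a seed with another member, or nearly share a whole strand with one.
miR-1193-5p: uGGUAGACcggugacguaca
miR-758-5p: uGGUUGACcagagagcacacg
miR-1197-5p: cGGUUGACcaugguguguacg
miR-410-5p: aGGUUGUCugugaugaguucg
miR-494-5p: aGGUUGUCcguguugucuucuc
miR-453: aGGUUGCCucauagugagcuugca
miR-496a-5p: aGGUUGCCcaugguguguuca
miR-300-3p: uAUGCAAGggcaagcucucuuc
miR-543-3p: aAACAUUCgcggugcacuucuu
miR-495-3p: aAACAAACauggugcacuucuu

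The 3p strands of Mir381 and Mir300 match at 19 of 22 bases, but A4G (from miR-381 to miR-300) lies inside the seed. Likewise the 3p strands of Mir543 and Mir495 match at 18 of 22 bases, with U6A and U7A in the seed. Seeds were also shared with genes outside the array: miR-410-3p with miR-344d-3p and miR-344e-3p, miR-329-3p with miR-362-3p, and miR-495-3p with miR-1192. Such sharing is a match of letters and says nothing of common targets in the limb.

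Depth was similar in the 2 libraries, with 4263630 sense counts over miRNA genes in replicate 1 and 5151214 in replicate 2. Levels are in counts per 1000000 sense counts (CPM). A sequenced small RNA is a whole molecule, so CPM was compared between genes without dividing by length; unequal capture of different sequences was not tested. Markers of limb tissues were present: 7 of 7 epidermal genes summed to 96249 and 108393 CPM, 3 of 3 cartilage genes to 47719 and 45654 CPM, 6 of 6 mesenchyme genes to 30683 and 32059 CPM, and 14 neuronal genes to 891 and 751 CPM, with Mir124a-1, Mir124a-2, Mir124a-3 and Mir9-2 listed at 0 in both. The last 4 come from families with the same mature strand at several loci, and multimapping reads were counted for no gene, so these zeros do not show that the miRNAs are absent.

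The array supplied a sizeable part of the limb's counted miRNAs. Its 34 members held 298575 counts in replicate 1, or 7.00% of the sense counts (Wilson 95% interval 6.98 to 7.03), and 280391 in replicate 2, or 5.44% (5.42 to 5.46). The mean share was 6.22% ± 1.10 (SD, n = 2). Intervals cover counting error only. At least 10 counts in both replicates were reached by 29 members, and at least 100 by 28. Of the 29, 20 lay above 167 CPM, the median level of all 340 miRNA genes that reached that minimum. None of the members had an antisense count in either library.

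Members transcribed from 1 short interval differed in level by orders of magnitude. Mir411 was the highest, with 14652 ± 2413 CPM (SD, n = 2), rank 18 among the miRNA genes counted. That rank is by sense counts and leaves out multimapping reads. The lowest with at least 10 counts in both replicates was Mir758, with 55 and 54 counts, or 11.7 ± 1.71 CPM, so the array spanned 1253-fold. That span depends on the minimum: it was 323-fold with at least 100 counts and 13175-fold with at least 1, and in replicate 2 alone it was 6669-fold, since Mir544 then reached 10 counts. The median of the 29 was 372 CPM, with quartiles of 143 and 1909.96 CPM. A few genes made up most of the output: the top 3 held 52.5% ± 0.112 of the members' counts and the top 8 held 88.3% ± 0.447 (SD, n = 2).

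**Figure D1:**
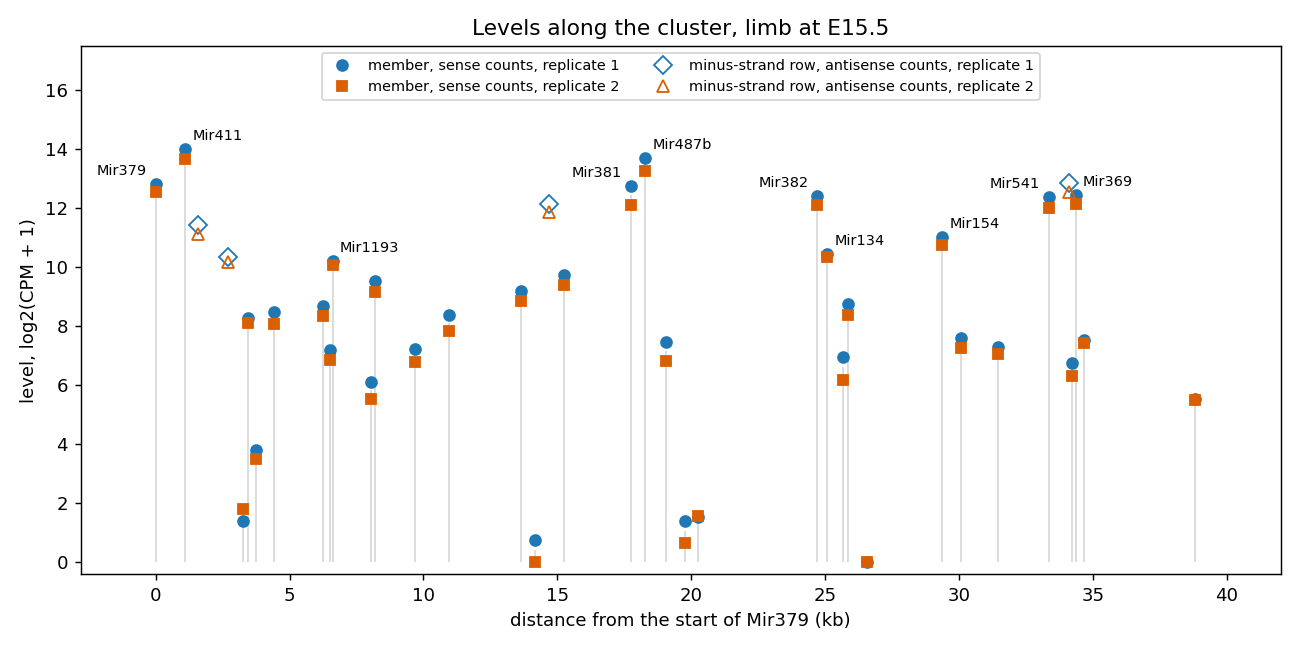
Level of each member, as log2(CPM + 1) of sense counts, against distance from the start of Mir379, with 1 point per replicate (grey lines reach the mean). Open symbols are antisense counts at the 4 minus-strand rows of the same interval; Mir411 and Mir487b are the highest members, and 5 members lie near 0.

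At the 5′ end, Mir379 (ENSMUSG00000065498, 109709060 to 109709125) had 30591 and 30636 counts, which gave 6561 ± 868 CPM. Mir411 (ENSMUSG00000065477, 109710175 to 109710256) had 69744 and 66688 counts. This pair of related hairpins held 34.2% ± 0.782 of the members' counts (SD, n = 2), the largest share of the 7 segments formed where neighbouring starts were over 2 kb apart. The division matters, since cutting at gaps over 3 kb left 3 segments, the largest with 69.2%. The gap after Mir411 is where Mir299a and Mir380 are annotated, which have no row of their own in these tables. With them included, no neighbouring starts from Mir411 to Mir1197 are over 2 kb apart. The division after Mir411 therefore rests on these missing rows.

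The next 11 members, Mir1197 to Mir667, filled 7.78 kb but held only 5.45% ± 0.193 of the members' counts (SD, n = 2). Mir1193, which has the 5p seed of Mir379, led them with 5065 and 5600 counts (1138 ± 71.3 CPM). Mir543 had 3170 and 2925 counts (656 ± 124 CPM), 5.04 times the mean CPM of Mir495, its neighbour and relative, which had 637 and 570 counts. Both replicates placed Mir1193 above Mir543 and Mir543 above Mir495. Mir494 (1771 and 1688 counts), Mir329 (1511 and 1397), Mir667 (1405 and 1176) and Mir323 (1323 and 1413) formed a middle group between 279 and 372 CPM. Lower still were Mir679 with 625 and 588 counts and Mir666 with 291 and 234. Mir1197, which shares its 5p seed with Mir758, had 7 and 13 counts.

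The third segment held 3 counted genes of unequal level. Mir300, the relative of Mir381, had 3627 and 3445 counts (760 ± 129 CPM). Mir376c, of a family known for adenosine-to-inosine editing of its hairpins, had 2510 and 2379 counts (525 ± 89.7 CPM). Mir654 had 3 counts in replicate 1 and 0 in replicate 2, which allows up to 0.582 CPM there. Together they made up 2.07% ± 0.0146 of the members' counts (SD, n = 2), close to the same share in both libraries. That share leaves out the minus-strand row Gm25252 in the same stretch, which had 19523 and 19295 antisense counts.

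Among the members' sense counts, Mir381 and Mir487b formed the next peak of the array. Mir487b (ENSMUSG00000076219, 109727333 to 109727414) had 56221 and 50141 counts, or 11460.0 ± 2441 CPM (SD, n = 2), rank 24 among the miRNA genes counted. Mir381 (ENSMUSG00000098838, 109726822 to 109726896) had 29182 and 22650 counts, or 5621 ± 1731 CPM. Its level was 7.40 times that of Mir300, with which it nearly shares the 3p strand. Directly downstream, Mir539 had 743 and 580 counts, so the mean CPM fell 79.9-fold between the neighbours Mir487b and Mir539. Gm27379 (7 and 3 counts) and Mir544 (8 and 10 counts) stayed under the minimum in at least 1 library.

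From Mir382 on, the remaining 13 members lie within Mirg, a long noncoding RNA annotated on the same strand from 109729764 to 109749460. The annotation placed 9 of them in exons of Mirg transcripts and 4 in introns, while the 21 members upstream overlapped no other gene on their strand. The 13 held 30.8% ± 0.910 of the members' counts (SD, n = 2). Mir382 (ENSMUSG00000065428, exonic, 109733771 to 109733846) led its segment with 23268 and 22610 counts, or 4923 ± 755 CPM. Mir134, which represses Limk1 in dendrites of neurons, had 6027 and 6635 counts (1351 ± 88.8 CPM). These exceeded Mir485, known to repress the synaptic vesicle gene Sv2a, with 1845 and 1722 counts, and Mir668 with 533 and 367. Mir453 had 0 counts in both libraries, which allows up to 0.704 CPM in replicate 1 and 0.582 CPM in replicate 2. Its seed partner Mir496a had 829 and 792 counts.

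Toward the 3′ end high and low genes alternated within short distances. Mir369, whose 3p strand is known to bind the AU-rich element of the tumour necrosis factor messenger RNA, had 23585 and 23578 counts (5054 ± 675 CPM). Mir412 had 455 and 404 counts, and Mir410, which represses the Wnt inhibitor Sfrp2 in muscle, had 784 and 883. The start of Mir369 lies 0.129 kb from that of Mir412 and 0.297 kb from that of Mir410, yet Mir369 exceeded Mir412 by 54.6-fold and Mir410 by 28.5-fold in mean CPM. Mir541, in an intron of Mirg, had 22996 and 21353 counts (4769 ± 883 CPM), and Mir154, also intronic, had 8888 and 8939 counts (1909.96 ± 247 CPM). Mir377 had 673 and 688 counts. The last gene, Mir3072, stood alone with 196 and 230 counts (45.3 ± 0.934 CPM). Over the 28 pairs of neighbours among the 29 members, the median fold between them was 8.06, and 13 pairs differed more than 10-fold.

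**Figure D2:**
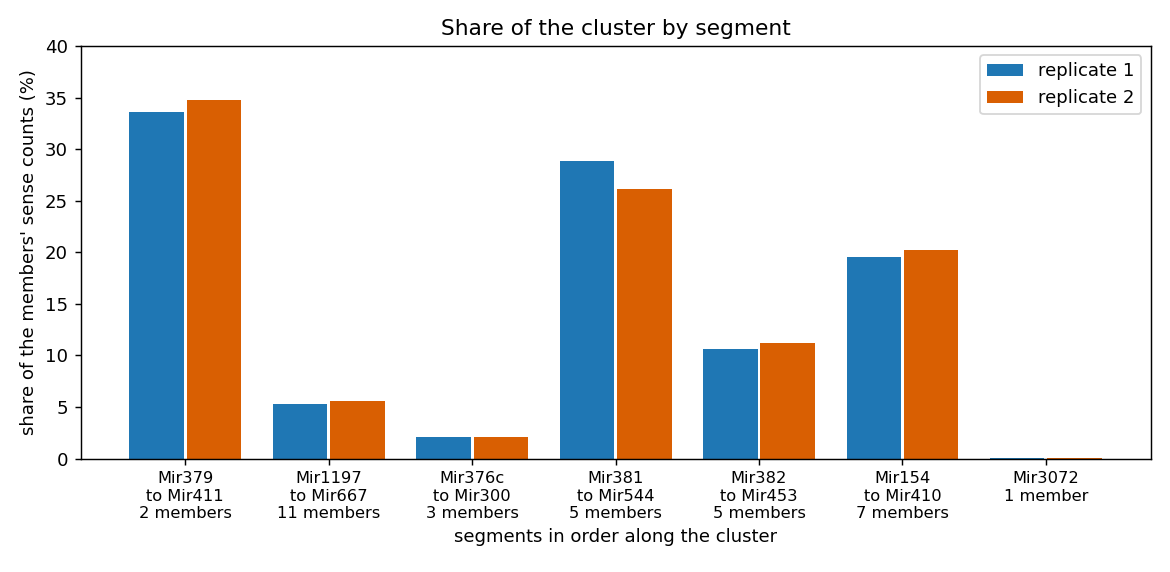
Share of the members' sense counts (percent) in each of 7 segments, in order along the array, with 1 bar per replicate and the number of members under each. The Mir379 to Mir411 and Mir381 to Mir544 segments hold the most, and the 11 genes from Mir1197 to Mir667 hold 5.31% and 5.58%.

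Level did not run with position. Spearman's rho between level and distance from Mir379 was -0.08 over the 34 members, given as a description, since all points share the same libraries. Sequence sharing touched some of the leading values. The hairpins of 4 members shared 20 or more consecutive bases with another annotated hairpin, Mir411 (with Mir758), Mir758, Mir376c and Mir487b (both with Mir376b), which held 42.8% ± 0.363 of the members' counts (SD, n = 2). At 22 bases this left only Mir376c. Reads with several alignments are in no count, so reads lying wholly in such a stretch would be missing. The common letters are shown for this reason.
Mir411 and Mir758: gguccacuaacccucaguauc
Mir376c and Mir376b: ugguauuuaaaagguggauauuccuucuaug
Mir487b and Mir376b: cauccacuuuuucaguauca

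The first stretch covers 12 of the 22 bases of miR-411-3p and none of miR-411-5p, so neither annotated strand lies wholly within it. The second covers 18 of the 22 bases of miR-376c-5p. The third, in the second highest member, covers 0 of the 21 bases of miR-487b-5p. No 3p entry was held for Mir376c or Mir487b, so overlap of their stretches with that strand was not checked. Mir376b has no row in these tables. How many reads were lost to such sharing was not tested.

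The members kept nearly the same order in both pools, and the array as a whole was lower in replicate 2. Over the 34 members log2(CPM + 1) had a Pearson r of 0.998 between the replicates and a Spearman rho of 0.996, across genes that are not independent replicates. The summed CPM was 1.29-fold lower in replicate 2 (log2 ratio -0.36). All 29 members tested had a ratio below 0, from -0.81 to -0.04, with a median of -0.35. Of the members with too few counts to be tested, Mir1197 and Mir544 had a higher CPM in replicate 2. Mir654 and Gm27379 had a lower one, and Mir453 had no counts. Among all 340 genes tested the median was 0.02, with 163 (47.9%) below 0. In the exact two-sided binomial test with Benjamini-Hochberg adjustment over the 340 genes, 26 of the 29 were lower in replicate 2 at an adjusted threshold of 0.05, against 25.6% of all genes. Higher in replicate 2 were 0 of the 29, against 25.3% of all genes. Without adjustment this was also 0, since none of the 29 had a ratio above 0. This test sets 2 libraries against counting noise and does not speak of conditions. In whole limbs, fewer cells of a type and less RNA per cell cannot be told apart.

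**Figure D3:**
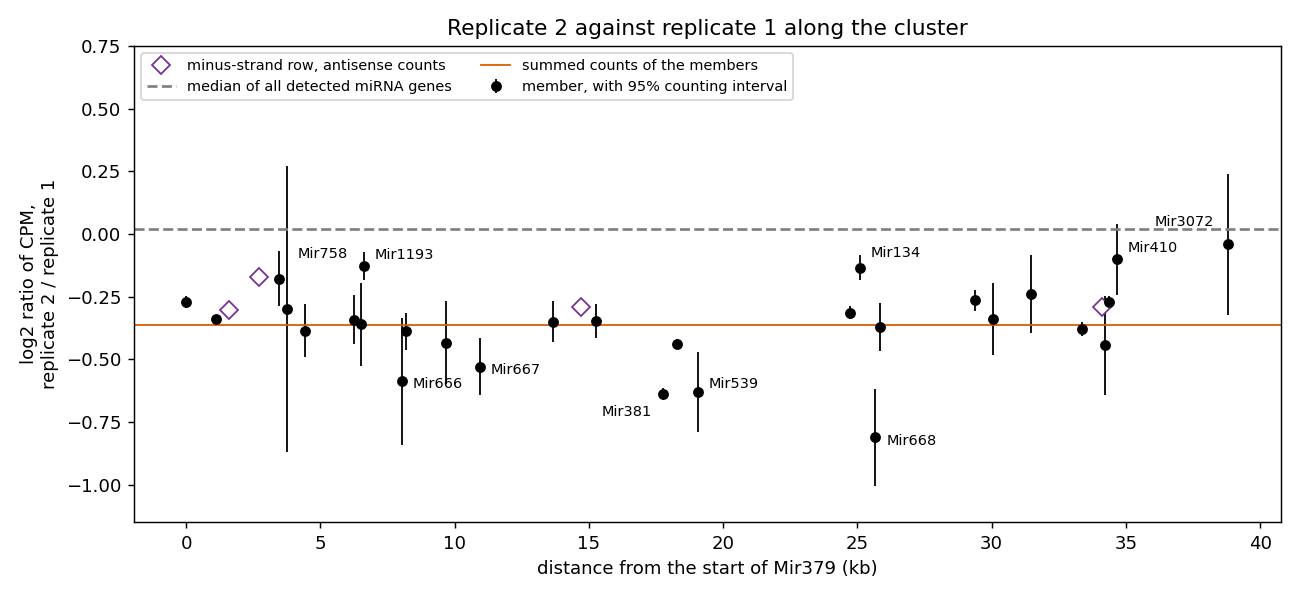
Log2 ratio of CPM, replicate 2 over replicate 1, for the 29 members with at least 10 counts in both, by distance from the start of Mir379, with exact 95% counting intervals. The dashed line is the median of all 340 genes (0.02), the solid line the members' summed counts (-0.36), and open diamonds the antisense counts of the minus-strand rows.

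The shift was broadly common to the array. Of the 29 members, 24 lay within 0.25 of the log2 ratio of the summed counts, and the SD over members was 0.17, against 0.38 over all 340 genes. The 340 include the members and genes with few counts, so the 2 SDs are not at like depth. A small SD was not particular to the array: it was 0.06 over the epidermal and 0.11 over the cartilage markers. It was 0.27 to 0.30 over the muscle, neuronal and mesenchyme markers and the imprinted genes upstream. Of the 4 highest genes, Mir411 had -0.34 (95% counting interval -0.35 to -0.32), Mir487b -0.44 (-0.46 to -0.42) and Mir379 -0.27 (-0.29 to -0.25), while Mir381, at -0.64, lay more than 0.25 from the ratio of the sum. None of these 4 intervals held the ratio of the sum. Counting intervals were narrow enough to separate some members from the rest: 14 intervals held the ratio of the sum, 5 lay wholly below it and 10 wholly above.

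Mir668 was the furthest below, going from 125 CPM in replicate 1 to 71.2 CPM in replicate 2. Its log2 ratio was -0.81 (interval -1.01 to -0.62, adjusted p = 2.87e-16, exact binomial test with Benjamini-Hochberg adjustment). Mir381 went from 6844 to 4397 CPM, a ratio of -0.64 (-0.66 to -0.61), and its share of the members' counts from 9.77% to 8.08%. Mir539 had -0.63 (-0.79 to -0.47). The intervals of Mir487b, which lies between Mir381 and Mir539, and of Mir667 were also below the ratio of the sum. The segment of Mir381 was the only one of the 7 with a lower share in replicate 2 (28.9% and 26.2%).

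At the other end, Mir1193 had 1188 and 1087 CPM, a log2 ratio of -0.13 (interval -0.18 to -0.07), and Mir134 had 1414 and 1288 CPM, also -0.13 (-0.19 to -0.08). Both passed the threshold but changed little. The 3 members that did not pass were Mir758 (adjusted p = 0.402), Mir410 (adjusted p = 0.232) and Mir3072 (adjusted p = 0.853; exact binomial test, Benjamini-Hochberg adjustment for all 3). Mir410 had a ratio of -0.10 with an interval from -0.24 to 0.04, and Mir3072 one of -0.04 with an interval from -0.32 to 0.24. For Mir758 the interval ran from -0.87 to 0.27, so its 55 and 54 counts could not show a difference of the size seen for the sum. Nor did the ratio run with level (Spearman's rho 0.14) or position (0.10) over the 29 members, again as a description.

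The imprinted miRNA genes just upstream, from Mir770 in Meg3 to before Mir379, differed between the pools in the same direction. These 18 genes held 3.14% of the sense counts in replicate 1 and 2.34% in replicate 2. Of 13 with at least 10 counts in both, 12 were lower in replicate 2 at the same threshold and 0 higher, beside the 25.6% and 25.3% of all genes, with a median log2 ratio of -0.44. Mir127, which lies opposite Rtl1 and helps to silence it, had 60340 and 53878 counts (ratio -0.44). The exception was Mir370, with 2132 and 2721 counts and a ratio of 0.08. Both sets of genes were measured in the same 2 libraries, and whether their ratios differ was not tested.

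Muscle markers also differed between the pools. Of 10 listed muscle genes 9 had a row and 5 reached the minimum, and all 5 passed the test as lower in replicate 2, against 25.6% of all genes, with a median log2 ratio of -1.33. The 5 include Mir208a, not a marker of skeletal muscle in particular, which had 34 and 12 counts and the lowest ratio of the list, -1.78. The summed level of the 9 genes with a row was 11558 CPM in replicate 1 and 4989 CPM in replicate 2. Most of it came from Mir206, a miRNA of skeletal muscle (11050.4 and 4787 CPM). Mir133a-1 was listed at 0 in both, but it shares its mature strand with Mir133a-2 and multimapping reads were dropped, so its 0 says nothing of the miRNA's level. Mir133a-2 (0 and 1 counts), Mir1a-1 (1 and 1) and Mir1b (3 and 4) were also under the minimum, and Mir1a-2 had no row. The muscle sum and the part of Mir206 in it therefore leave out multimapping reads, and how many were lost was not tested. Of the 9 neuronal markers that reached the minimum, 6 had a ratio below 0 and 2 passed the test as lower, a share near the 25.6% of all genes. All 7 epidermal markers passed as higher in replicate 2, against 25.3% of all genes, with a median of 0.11, and all 3 cartilage markers passed as lower, with a median of -0.21. Of the 6 mesenchyme markers 4 had a ratio above 0, and 3 passed as higher and 2 as lower. What part muscle or other tissue content has in the ratio of the array was not tested.

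**Figure D4:**
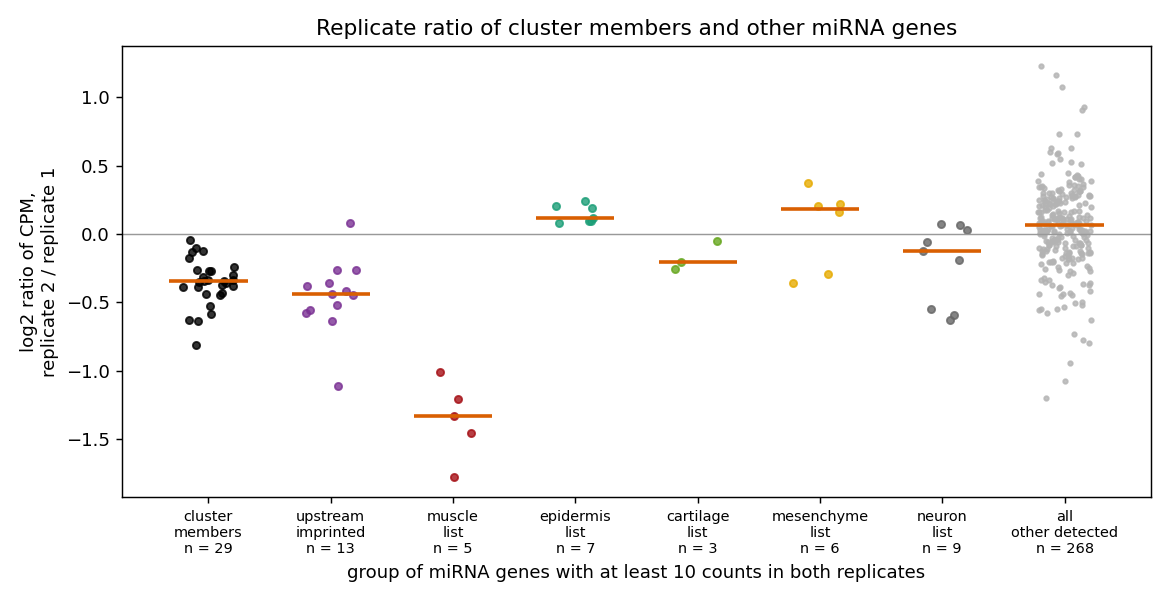
Log2 ratio of CPM, replicate 2 over replicate 1, for the cluster members, the upstream imprinted genes, 5 marker lists and all other genes with at least 10 counts in both replicates; 1 point per gene, orange bars are medians. The members centre on -0.35, the muscle list on -1.33 and all other genes on 0.07.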

How the data were processed

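MicroRNA-seq of E15.5 mouse limb gave 1 table for each of 2 replicates. The deposited values were raw read counts, whole numbers for each miRNA gene, made on mm10 with annotation M4, per the file headers in the deposited README. From the values, the columns were taken as counts on both strands, sense and antisense, and sense counts were used. Aligner, counter and trimming: not given in the sources used here. Multimapping reads, 29.4% and 29.7% of the libraries, were counted for no gene. Sense totals were 4263630 and 5151214, so a count of 0 allows up to 3 counts, 0.704 or 0.582 CPM.

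Positions and hosts were from GENCODE M21 (GRCm38), matched by gene identifier for 1894 of 1973 genes. The hairpin models may differ from M4. The members and lists were chosen with earlier results of these data known. All 34 members are named; of other genes, only those of the lists, those annotated in the interval without a row or on its minus strand, and some that share a seed with a member, chosen after the matches were seen. CPM used the sense total. Where both replicates had 10 or more sense counts, a gene's counts were compared by an exact binomial test (two-sided, conditional on their sum), with Benjamini-Hochberg adjustment at 0.05 (scipy 1.17.1). It was tested on simulated data with counting noise only, a setting that leaves out variation between pools. With 1 group no edgeR quasi-likelihood test was possible; edgeR 4.0.16 TMM and DESeq2 1.42.0 size factors served as alternatives. Hairpins were folded with ViennaRNA 2.7.2. Labels call the replicates biological, from separate pools.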

Additional observations from a re-analysis of the deposited data

Results flagged for a closer look

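Antisense counts on the minus strand of the interval belong to no member, and they were far above the 3 counts that a count of 0 allows. There were 4 such rows, each opposite a plus-strand miRNA gene that has no row of its own in these tables. Gm24321, opposite Mir409, had 31251 antisense counts in replicate 1 and 30866 in replicate 2, with 0 sense counts in either. Gm25252, opposite Mir376a, had 19523 and 19295 antisense counts, and Gm25750, opposite Mir380, had 5606 and 6009, both again with 0 sense counts. Mir299b, opposite Mir299a, had 11782 and 11520 antisense counts beside 23 and 16 sense counts. By position these reads have the orientation of the plus-strand genes. At 6661 ± 946 CPM (SD, n = 2) on the sense scale, the row opposite Mir409 was within the replicate spread of Mir379 (6561 ± 868 CPM), the third member by level. Together the 4 rows had 22.8% and 24.1% as many counts as all 34 members. Their log2 ratios between the replicates, -0.31 to -0.17, lay on the same side of 0 as those of the tested members. The mature strands of the plus-strand genes, with seeds in capitals, are shown to identify them.
miR-409-5p: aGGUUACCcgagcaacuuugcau
miR-409-3p: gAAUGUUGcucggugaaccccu
miR-376a-5p: gGUAGAUUcuccuucuaugagu
miR-376a-3p: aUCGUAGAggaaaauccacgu
miR-299a-5p: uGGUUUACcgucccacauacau
miR-299a-3p: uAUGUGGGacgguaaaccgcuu
miR-380-5p: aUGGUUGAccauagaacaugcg
miR-380-3p: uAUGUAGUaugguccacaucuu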

How the results depend on the processing

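Under TMM, DESeq2 size factors, a total without the members, other count minimums and counts on both strands, 26 members were lower in replicate 2 and 0 higher, and none of the 29 tested members changed direction or side of the threshold (28 were tested with at least 100 counts). Over those settings 12.5% (at least 1 count) to 33.6% (at least 100) of all genes were lower and 12.1% to 34% higher. The upstream list kept 12 lower, or 11 with at least 100 counts. The median log2 ratio of members was -0.34 with TMM, -0.37 with DESeq2 size factors and -0.37 without the members in the total. The cluster share was 2.92% of all reads, 4.83% without Mir411, 3.56% over members with no shared stretch and, as an alternative chosen after seeing the data, 7.57% with the antisense counts of the minus-strand rows added. The span of levels was 13175-fold with at least 1 count, 323-fold with at least 100, and 1268 to 6669 leaving out 1 replicate in turn. The largest segment held 69.2% with gaps over 3 kb and 40.5% with 3 parts of equal length. With stretches of 22 bases 1 member shared sequence. No paired analysis was possible because the series has 1 group. The test between replicates cannot leave out a replicate. Depth limits Mir758 and the 5 members under 10 counts.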

Other observations

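Further sequence features recur in the array and were looked for after its sequences were seen. The letters GGUCCAC occur in 4 of 29 mature 3p strands of members (miR-379-3p, miR-411-3p, miR-758-3p and miR-412-3p) and in 1 of 702 other mouse 3p strands in the RefSeq table (0.142%). That 1 is miR-380-3p, whose gene lies in the same interval but has no row in these tables, so no 3p strand from outside the interval held these letters. The letters GGUUG occur in 8 of 31 mature 5p strands of members and in 29 of 696 others (4.17%), miR-380-5p among the others. Only the mature strand itself was searched. Members with the 3p letters ranged from Mir411, the highest, to Mir758, the lowest that reached the count minimum.

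Hairpin properties were only weakly related to level across the 34 members, given as descriptions. Spearman's rho with level was -0.36 for GC content, -0.21 for hairpin length and 0.10 for folding energy. Mir3072, at 72.3% GC the richest hairpin of the array, had 45.3 CPM, while Mir411 had 45.1% GC. The hairpin of Mir453, without a count in either library, had 48.8% GC and a folding energy of -32.5 kcal/mol, beside -31.4 kcal/mol for Mir487b, the second highest member.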
